A study of Rattus norvegicus with 10 samples.

Results

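PTCH1 (ENSRNOG00000019354), the receptor for Hedgehog ligands, and TMEM107 (ENSRNOG00000006519), a membrane protein of the ciliary transition zone, are 2 of the 32883 genes listed for the rat choroid plexus, and their levels differed between the diets in opposite directions. Relative to rats on the control diet, mean PTCH1 was 22.2% higher and mean TMEM107 differed by -21.5% in rats on the high fat diet (HFD). Both genes were chosen by symbol. PTCH1 came from the study's list of differentially expressed genes. TMEM107 is not on that list and came from an earlier analysis of these libraries. The diet difference was thus known when they were chosen. It is therefore described without a test.

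The choroid plexus lies in the brain ventricles and secretes cerebrospinal fluid, and its RNA was sequenced in 10 female Wistar rats at 27 weeks of age. A nutrient source-matched control diet was fed to 5 rats and the HFD to the other 5, with 1 animal per library. The plexuses of the lateral and 4th ventricles were combined, and the rats were kept for experiments by body weight, control rats under a weight limit and HFD-fed rats over a higher one, so that diet and body weight cannot be told apart. The epithelial marker TTR held 32.2% to 39.7% of all transcripts. Control rat 1 stood apart, as 1837 of its genes differed over 2-fold from the other rats' median while each other rat had 170 to 235 such genes, and results that it moved strongly are also given without it.

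Hedgehog signalling starts when a secreted ligand binds PTCH1 on the receiving cell. Without ligand PTCH1 keeps the signal transducer SMO inactive, and with ligand SMO gathers in the primary cilium and the GLI transcription factors switch on their targets, among them PTCH1 itself, which in turn dampens the signal. The pathway depends on the transition zone, a gate at the base of the cilium that controls which membrane proteins enter, and TMEM107 belongs to its Meckel-Gruber (MKS) module, whose loss in humans causes ciliopathies. Choroid plexus epithelial cells carry tufts of cilia, and the plexus of the hindbrain is known as a source of the ligand Sonic hedgehog during development.

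The start regions of both genes are shown because each holds a short motif of the system the gene belongs to. Capitals mark a GLI site (GACCACCCA on either strand) in Ptch1 and an X-box in Tmem107, the motif of the RFX factors of ciliary genes, whose letters as printed were searched on both strands with any base at the fourth letter from either end. The windows are RefSeq sequences of the GRCr8 build, from 250 bases before to 50 after an annotated start, at chr17:1555321-1555620 (plus strand) for Ptch1 and chr10:54270946-54271245 (plus strand) for Tmem107.
Ptch1: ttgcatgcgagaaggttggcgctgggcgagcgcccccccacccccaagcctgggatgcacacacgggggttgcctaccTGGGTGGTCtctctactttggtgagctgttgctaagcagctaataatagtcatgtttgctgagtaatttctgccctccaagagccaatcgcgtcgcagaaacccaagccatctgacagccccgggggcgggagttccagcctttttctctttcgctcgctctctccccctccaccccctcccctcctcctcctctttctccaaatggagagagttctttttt
Tmem107: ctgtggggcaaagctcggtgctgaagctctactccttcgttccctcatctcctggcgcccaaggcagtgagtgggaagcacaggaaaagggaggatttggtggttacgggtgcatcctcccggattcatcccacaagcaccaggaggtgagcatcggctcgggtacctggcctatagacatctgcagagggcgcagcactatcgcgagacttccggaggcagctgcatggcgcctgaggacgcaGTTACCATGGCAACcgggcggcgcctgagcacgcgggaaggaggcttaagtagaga
The GLI site of Ptch1 lay 172 to 164 bases before the start, and the X-box of Tmem107 spanned the start. Of 33469 windows of this length, 129 (0.385%) held the GLI site and 46 (0.137%) the X-box. The motifs were picked with these sequences in view, and the X-box was not found in the Ptch1 window nor the GLI site in that of Tmem107. Among the windows of 74 other listed ciliary genes, 0 held this X-box and 1, that of Tekt1, the GLI site. Among 28 windows of listed Hedgehog genes, 0 held this X-box and 1, that of Ulk3, the GLI site, and of the 4 windows of listed GLI targets 0 held it. A match of letters is a description and says nothing of binding in this tissue.

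Levels are given as TPM, each gene's share of all transcripts after correction for length, so that PTCH1 and TMEM107 can be set side by side. The TPM of each rat were also divided by its median ratio to the geometric mean of all rats over 12037 genes (rescaled TPM, with factors of 0.752 for control rat 1 and 0.950 to 1.14 for the others). TPM carry no read number, so the sequencing depth behind each value is not given here.

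PTCH1 had a rescaled TPM of 5.44, 6.64, 6.46, 5.61 and 6.91 in control rats 1 to 5. In HFD-fed rats 1 to 5 it had 6.68, 8.23, 7.61, 6.99 and 8.43. The mean was 6.21 ± 0.65 (SD, n = 5) with the control diet and 7.59 ± 0.756 (SD, n = 5) with the HFD. The diets met at their edges, since 4 of the 5 HFD-fed rats were above every control rat and HFD-fed rat 1 lay below control rat 5. On the log2(rescaled TPM + 0.1) scale the difference, HFD minus control, was 0.29 with a standard error of 0.10, and without control rat 1 it was 0.24.

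TMEM107 was more abundant, with a rescaled TPM of 48.2, 50.4, 52.6, 47.3 and 47.1 in control rats 1 to 5. In HFD-fed rats 1 to 5 it had 37.1, 39.7, 36.6, 41.6 and 37.8. The means were 49.1 ± 2.35 (SD, n = 5) and 38.6 ± 2.08 (SD, n = 5), and the diets did not overlap, all HFD-fed rats being lower. Such a complete separation in the lower direction was seen for 246 of 12183 genes (2.02%), and in the higher direction for 171 (1.40%). The log2 difference was -0.35 with a standard error of 0.06, and without control rat 1 it was -0.36. In a bulk sample, fewer cells that carry a transcript and less of it per cell cannot be told apart.

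After rescaling, the level of TMEM107 varied little within a diet, with a coefficient of variation of 4.78% in control rats and 5.40% in HFD-fed rats, against 14.9% and 10.8% with TPM as deposited. A gene chosen for its diet difference tends to have a small spread, so that this is a description only. Its within-diet SD on the log2 scale was 0.07 after rescaling, and 5.67% of 1305 genes of like level (within 0.5 on the log2 scale) had a smaller one, their median being 0.16. PTCH1 had a within-diet SD of 0.15 against a median of 0.22 for 2301 genes of like level, of which 23.1% had a smaller one. In the order of mean level, 7491 of the 12183 genes tested were above PTCH1 and 2085 above TMEM107.

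**Figure D1:**
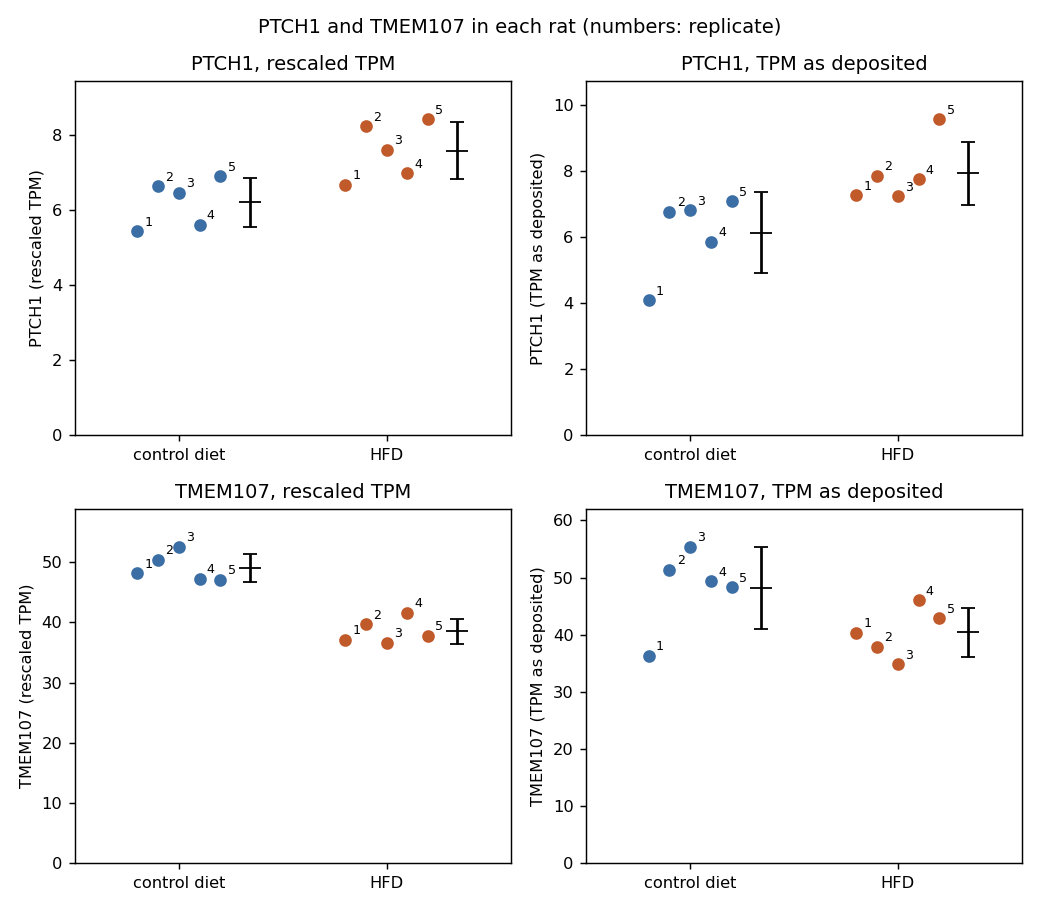
PTCH1 (top) and TMEM107 (bottom) in each of the 10 rats, in rescaled TPM (left) and TPM as deposited (right). Points are single rats with their replicate numbers and black bars are the mean ± SD of 5 rats. TMEM107 is lower in all 5 HFD-fed rats with rescaled TPM, while control rat 1 moves down to 36.3 with TPM as deposited.

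With TPM as deposited the picture of each gene changed. PTCH1 had 4.09, 6.76, 6.81, 5.86 and 7.09 in control rats 1 to 5 and 7.26, 7.85, 7.23, 7.74 and 9.57 in HFD-fed rats 1 to 5. All HFD-fed rats were then above all control rats, as for 161 of 12221 genes (1.32%), and the log2 difference was 0.39. TMEM107 had 36.3, 51.4, 55.4, 49.4 and 48.3 in control rats and 40.3, 37.9, 34.8, 46.0 and 42.9 in HFD-fed rats. The diets overlapped through control rat 1, which lay below 4 of the 5 HFD-fed rats, where 41 of the 12221 genes (0.335%) had all HFD-fed rats lower, and the log2 difference was -0.25. Without control rat 1, TPM as deposited gave a log2 difference of 0.25 for PTCH1 and -0.35 for TMEM107. The median log2 difference of all genes was 0.12 with TPM as deposited and 0.01 after rescaling, so that the difference of each member from that median was nearly the same on both scales.

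The ratio of TMEM107 to PTCH1 within a rat does not depend on how a library is scaled. It was 8.87, 7.60, 8.14, 8.44 and 6.81 in control rats 1 to 5 and 5.55, 4.83, 4.81, 5.95 and 4.48 in HFD-fed rats 1 to 5. The highest ratio on the HFD was below the lowest on the control diet, and the means were 5.12 ± 0.603 and 7.97 ± 0.794 (SD, n = 5 each). On the log2 scale the ratio of PTCH1 to TMEM107 was 0.64 higher on the HFD. This separation follows from the choice of 2 genes known to differ in opposite directions.

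**Figure D2:**
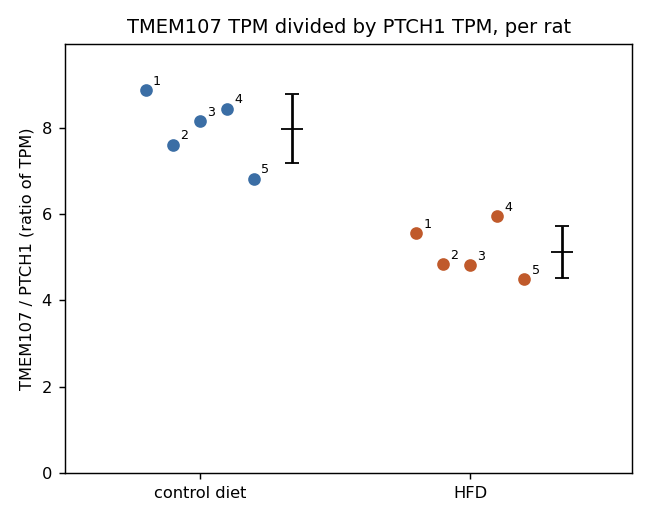
TPM of TMEM107 divided by TPM of PTCH1 in each rat, by diet. Points are single rats with their replicate numbers and black bars are the mean ± SD of 5 rats, and the HFD-fed rats lie between 4.48 and 5.95, below the control rats at 6.81 to 8.87.

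Whether the 2 genes move together between rats of the same diet was not used to choose them, and it was tested on log2 values centred on each diet's mean. With rescaled TPM, PTCH1 and TMEM107 had no correlation that passed the test (Pearson's r = 0.123, p = 0.74, and Spearman's rho = -0.0182, p = 0.974, n = 10, exact two-sided permutation test within diets, adjusted p = 0.941 and 1.0 over 19 relations). Without control rat 1, r was 0.0646 (exact permutation p = 0.867), and without the 2 rats farthest from the median of PTCH1 it was -0.121. Control rats 2 and 3 and HFD-fed rat 2 were above their diet's mean for both genes, and control rats 1 and 4 and HFD-fed rat 1 below it. By contrast, control rat 5 and HFD-fed rat 5 had the highest PTCH1 of their diet and TMEM107 below its mean.

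With TPM as deposited, r between the genes was 0.793 (rho = 0.636, exact permutation p = 0.0403 and 0.0679, n = 10, adjusted p = 0.0548 and 0.108). Control rat 1 was the lowest control rat for both genes on this scale, by 0.54 for PTCH1 and 0.39 for TMEM107 below the diet's mean log2 value. Without it r was 0.391 (exact permutation p = 0.406), and without the 2 rats farthest from the median of PTCH1 it was 0.257.

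**Figure D3:**
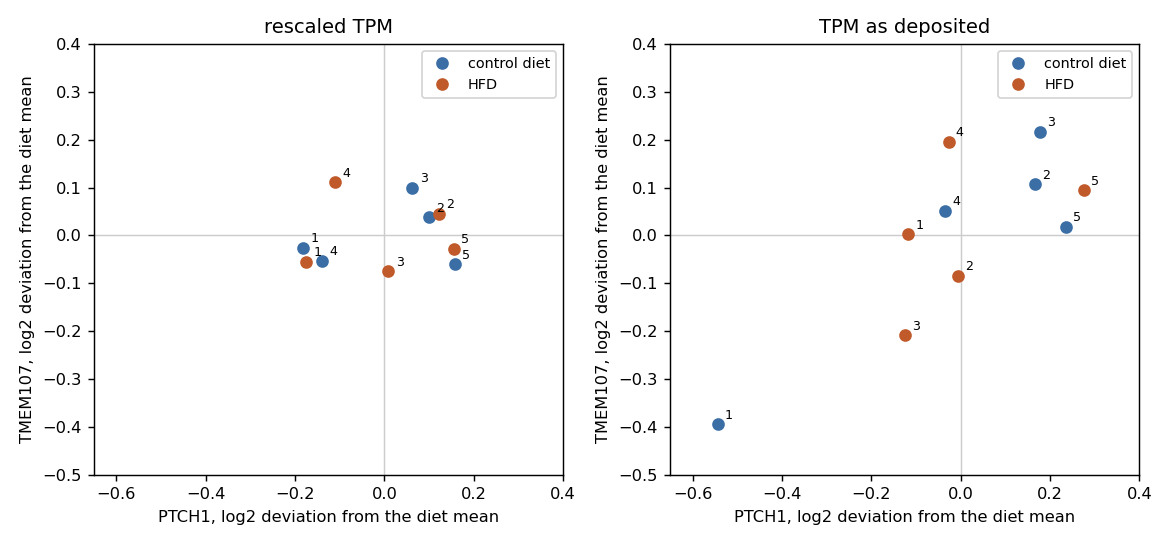
Deviation of TMEM107 from its diet's mean (log2 scale, vertical axis) against that of PTCH1 (horizontal axis) in each rat, with rescaled TPM (left, r = 0.123) and TPM as deposited (right, r = 0.793). Points are rats with their replicate numbers, and control rat 1 lies far below the others on the right only.

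Of the other components of Hedgehog signalling, the ligands (SHH, IHH, DHH), the co-receptors CDON, BOC and GAS1, HHIP, SMO, SUFU, KIF7, GPR161, EVC, EVC2 and GLI1 to GLI3 are not reported here, since the names paired with these identifiers cover 2015 genes, mostly the most abundant. Of 45 listed genes of the pathway and its targets, 2 had a name. The kinase CSNK1A1, which phosphorylates GLI proteins and SMO, had a rescaled TPM of 81.0 ± 20.8 in control rats and 90.7 ± 4.63 in HFD-fed rats (SD, n = 5 each). Its control mean held a low value of 44.1 in control rat 1, the other control rats being at 85.7 to 93.0, and the log2 difference moved from 0.21 to 0.01 without that rat. SFRP1, a secreted Wnt antagonist named as a Hedgehog target, had 87.4 ± 26.6 against 80.7 ± 18.1 (SD, n = 5 each). Its log2 difference was -0.09, with 0.01 for TPM as deposited and 0.06 without control rat 1. Neither gene had an unadjusted p under 0.05 (adjusted p = 0.64 and 0.845, limma), against 8.60% of all genes in either direction.

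With rescaled TPM most of the other named ciliary genes had a lower mean on the HFD, as TMEM107 did, most of them by less than the spread between rats. Of 93 listed genes 16 were named and tested, of which 14 had a lower and 2 a higher mean on the HFD. By limma 3 of the 16, all lower, passed an unadjusted p of 0.05, against 4.83% of all genes in that direction, and 0 passed after adjustment, as was the case for all genes tested (0.00%). The 3 include UNC119, which the study lists as differing in these same libraries, so that the count is not independent of that list. The median log2 difference of the 16 was -0.10, against 0.01 for all genes. Named genes are mostly abundant, and the 16 were not compared with genes of like level. TPM as deposited moved all genes up by nearly the same amount, so that 8 of the 16 were then higher with a median of 0.00, against a median of 0.12 for all genes, and 0 of the 16 had an unadjusted p under 0.05 (1.26% of all genes in the lower direction). Without control rat 1 all 16 were lower with a median of -0.06, and 3 had an unadjusted p under 0.05 (6.33% of all genes in the lower direction).

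The genes nearest to TMEM107 in function are those of the transition zone, of which 3 were named. B9D2, of the B9 complex of the MKS module, had 58.7, 49.5, 44.6, 47.9 and 43.9 in control rats 1 to 5. In HFD-fed rats 1 to 5 it had 44.5, 42.1, 38.8, 39.8 and 45.0. The diets overlapped, the log2 difference was -0.21 with a standard error of 0.09 (limma, adjusted p = 0.568), and its unadjusted p was under 0.05 in 5 of 10 fits with 1 rat omitted. TMEM216, another MKS protein, had 49.0 ± 2.69 in control rats and 44.8 ± 2.96 in HFD-fed rats (SD, n = 5 each, limma, adjusted p = 0.573). TMEM218, a transition zone protein linked to Joubert syndrome, had 51.6 ± 2.46 and 50.5 ± 1.14 (SD, n = 5 each, limma, adjusted p = 0.808), with a log2 difference of -0.03 that was 0.07 with TPM as deposited. At levels close to that of TMEM107, the 3 genes thus had smaller differences between the diets than TMEM107, which was picked for its own.

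Outside the transition zone, UNC119, which carries lipid-modified proteins into cilia and is itself on the study's list, so that its direction is not independent evidence, had 162, 130, 127, 130 and 136 in control rats 1 to 5. In HFD-fed rats 1 to 5 it had 115, 113, 112, 118 and 116. The diets did not overlap, as for 246 of 12183 genes (2.02%) in the lower direction. The log2 difference was -0.25 with a standard error of 0.07 (limma, adjusted p = 0.542). It was -0.19 without control rat 1, the highest control rat. TEKT1, a tektin of the axoneme of motile cilia, had 81.0 ± 3.25 in control rats and 72.0 ± 5.06 in HFD-fed rats (SD, n = 5 each), a log2 difference of -0.17 (limma, adjusted p = 0.542), and 9 of 10 fits with 1 rat omitted gave an unadjusted p under 0.05. With TPM as deposited the log2 differences of UNC119 and TEKT1 were -0.15 and -0.07, and neither had an unadjusted p under 0.05.

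Intraflagellar transport moves cargo along the cilium. None of the 3 named genes of its IFT-B complex, IFT20, IFT46 and TTC30B, had an unadjusted p under 0.05, with log2 differences of -0.09, -0.12 and 0.02. The same held for the transport motor subunit DYNC2LI1 (log2 difference -0.07) and for ARL6 and LZTFL1 (0.01 and -0.05). Both of the latter act on the BBSome, the coat that carries membrane proteins through the cilium, and are not its subunits. It also held for ARL3 and UNC119B of the ciliary membrane (-0.18 and -0.01), and for RSPH1, RSPH4A and CFAP126 of motile cilia (-0.15, -0.05 and -0.23). Without control rat 1 the differences of IFT20, IFT46, ARL3, RSPH1 and CFAP126 were -0.02, -0.04, -0.05, -0.01 and -0.08, and that of UNC119B was -0.12. TTC30B and ARL6 were then below 0, at -0.01 and -0.02, and LZTFL1 was at -0.10. With TPM as deposited, IFT20, DYNC2LI1, LZTFL1, UNC119B and RSPH4A were above 0, at 0.01 to 0.10, but below the median of all genes on that scale, 0.12. A further 16 axonemal genes were added by name after the deposited files had been seen, and they too were not compared with genes of like level. Of these, 13 were lower on the HFD, with a median log2 difference of -0.07 against 0.01 for all genes, and with TPM as deposited 6 were lower, with a median of 0.03 against 0.12. An unadjusted p under 0.05 was found for 2, both lower, against 4.83% of all genes in that direction. They were CFAP298, needed to assemble dynein arms, with a log2 difference of -0.21, and CCDC113 with -0.28. The adjusted p was 0.542 for both by limma, each had an unadjusted p under 0.05 in all 10 fits with 1 rat omitted, and neither did with TPM as deposited.

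**Figure D4:**
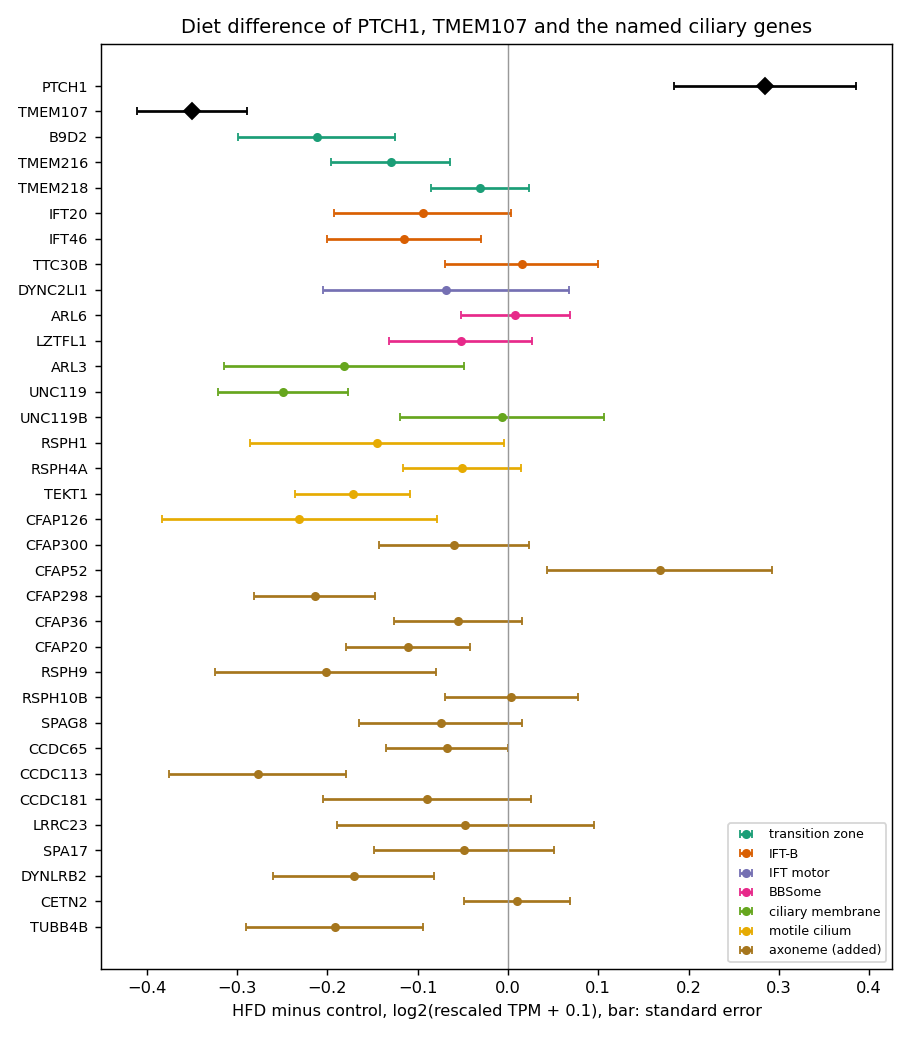
Difference between the diets (HFD minus control, log2(rescaled TPM + 0.1), horizontal axis) for PTCH1, TMEM107 and the 32 named ciliary genes, coloured by list. Bars are the standard error of the limma fit with 5 rats per diet, and PTCH1 at 0.29 and TMEM107 at -0.35 lie outside the range of the other genes, -0.28 to 0.17. Both members were chosen with their diet difference known, so that their place outside this range follows from the choice. With TPM as deposited, 18 of the 32 were above 0, with a list median of 0.02 against 0.12 for all genes.

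Markers of the cells in the tissue were set beside the members. Of 10 epithelial markers, 7 were higher on the HFD, with a median log2 difference of 0.08 against 0.01 for all genes (9 with TPM as deposited, with a median of 0.18 against 0.12), and 1, KL (klotho), had an unadjusted p under 0.05, against 3.77% of all genes in that direction. KL had 372 ± 58.1 in control rats and 445 ± 17.8 in HFD-fed rats (SD, n = 5 each, limma, adjusted p = 0.564), a log2 difference of 0.27 that was 0.16 without control rat 1. Without that rat, 6 of the 10 markers were higher and 4 lower, with a median of 0.04 against 0.00 for all genes. AQP1 went the other way from KL, with a log2 difference of -0.05 in all rats and -0.18 without control rat 1. Its unadjusted p by limma was then under 0.05, against 6.33% of all genes in the lower direction. The summed epithelial markers, mostly TTR, ran from 323000 to 535000 rescaled TPM in control rats and from 295000 to 411000 in HFD-fed rats, and the 4 control rats other than control rat 1 lay between 323000 and 332000. The stromal marker DCN, the mural marker RGS5 and the endothelial marker PLVAP, the single named gene of each list, had log2 differences of 0.30, 0.36 and -0.19 and no unadjusted p under 0.05, and control rat 1 was the lowest control rat for DCN (116) and RGS5 (42.5) and the highest for PLVAP (96.8). Without that rat the differences were 0.19, 0.09 and -0.05. Their rescaled TPM ran from 116 to 229, 42.5 to 110 and 53.4 to 96.8 with the control diet and from 159 to 225, 100 to 128 and 50.8 to 66.7 with the HFD. The 3 named blood genes summed to 3420 to 7410 and 2910 to 5980 (3420 to 6450 in the control rats other than control rat 1), and none had an unadjusted p under 0.05. Markers of macrophages, neurons, glia and of hindbrain and telencephalic plexus are not reported here because none was named. The part of cell composition in the differences of PTCH1 and TMEM107 was not tested.

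Within the diets, 19 relations of the members with each other, with these lists and with each rat's mean effective transcript length were computed on rescaled TPM, and 0 passed an adjusted p of 0.05. The smallest was that of PTCH1 with the mean of the epithelial markers (r = 0.732, p = 0.00653, rho = 0.758, p = 0.0251, n = 10, exact permutation within diets, adjusted p = 0.124 and 0.368). It was 0.698 without control rat 1 (exact permutation p = 0.0528) and 0.527 without the 2 rats farthest from the median of PTCH1. PTCH1 with the mural marker RGS5 gave r = 0.542 (rho = 0.6, exact permutation p = 0.0495 and 0.0387, n = 10, adjusted p = 0.47 and 0.368), and -0.25 without the 2 farthest rats, so that it rested on those. TMEM107 with the transition zone genes gave r = 0.0495 and rho = 0.261 (exact permutation p = 0.899 and 0.471, n = 10, adjusted p = 0.949 and 0.894), and with the motile cilium genes r = 0.208 and rho = 0.515 (exact permutation p = 0.597 and 0.119, adjusted p = 0.908 and 0.754). Without control rat 1 these r were 0.231 and 0.653 (exact permutation p = 0.558 and 0.0906, adjusted p = 0.731 and 0.508). Without the 2 rats farthest from the median of TMEM107 they were 0.614 and 0.398. The mean effective transcript length, a measure of how long the sequenced transcripts were, was 789 bases in control rat 1, and the other rats had 874 to 968. Its r was 0.315 with PTCH1 and 0.231 with TMEM107 (exact permutation p = 0.439 and 0.525, n = 10, adjusted p = 0.908 for both), with rho of 0.345 and 0.321 (exact permutation p = 0.358 and 0.402, adjusted p = 0.894 for both), and r was -0.064 and -0.0553 without the 2 farthest rats.

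With TPM as deposited, 13 of the 19 relations passed an adjusted p of 0.05 with all rats and 0 without control rat 1, and all but 2 of the 19 had an r above 0. TMEM107, for instance, had an r of 0.936 with the mean effective transcript length (rho = 0.867, exact permutation p = 0.0034 and 0.00479, n = 10, adjusted p = 0.0162 and 0.0293), 0.827 without control rat 1 (adjusted p = 0.102) and 0.7 without the 2 rats farthest from its median.

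The genes most like each member were ranked by Pearson's r of rescaled log2 values centred within diets, over the 9 rats other than control rat 1, among the 2014 other named genes. These are descriptions from few rats that share the same libraries, and of all 12182 genes 3 had an r above 0.9 with PTCH1 and 9 with TMEM107, while 9 and 19 had an r below -0.9, the medians being 0.00. PTCH1 was followed most closely by CHD6, a chromatin remodeller that is on the same list of the study (r = 0.973 over 9 rats and 0.605 over 10). Less abundant genes were named through that list of differing genes, and CHD6 had a mean rescaled TPM of 8.75 and a log2 difference of 0.32. CHD6 had 8.76, 10.3, 9.79, 9.36 and 10.4 rescaled TPM in HFD-fed rats 1 to 5, which puts those rats in the same order as PTCH1. In control rats 1 to 5 it had 8.34, 7.72, 7.81, 6.77 and 8.24, where control rat 1 is high for CHD6 and lowest for PTCH1. Next came the co-chaperone DNAJA4 (0.898), the calcium sensor STIM2 (0.86), SLC66A2 (0.848) and the chloride channel protein CLIC6 (0.833). Over all 10 rats their r was 0.704, 0.845, 0.881 and 0.124. Among the most opposite were MRPS36 (-0.856 over 9 rats and -0.58 over 10), the fatty acid oxidation enzyme ECHS1 (-0.801 and 0.175), LOC103695118 (-0.777 and -0.731) and the ribosomal protein gene RPS10 (-0.772 and -0.65). ECHS1 was thus opposite to PTCH1 only without control rat 1.

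TMEM107 was followed by HOPX, a homeodomain protein (r = 0.958 over 9 rats and 0.723 over 10), the Golgi GTPase RAB6A (0.91 and 0.31), the BBSome regulator LZTFL1 (0.892 and 0.795), the mitochondrial co-chaperone DNAJA3 (0.89 and 0.497) and DUSP6, a phosphatase that switches off ERK (0.885 and 0.859). LZTFL1 was the only gene of the ciliary lists among these 5. It had 58.9, 69.0, 73.2, 65.9 and 67.3 rescaled TPM in control rats 1 to 5 and 58.1, 69.0, 61.9, 71.6 and 62.0 in HFD-fed rats 1 to 5, so that it followed TMEM107 within each diet while its own diets overlapped. DUSP6 had 22.8, 26.4, 26.6, 20.1 and 13.1 in control rats and 10.8, 12.5, 9.27, 20.4 and 12.2 in HFD-fed rats, where HFD-fed rat 4 was the highest for DUSP6 as for TMEM107. The names of less abundant genes came from the study's list of differing genes, and DUSP6 had a mean rescaled TPM of 17.4 and a log2 difference of -0.75. The most opposite were RT1-S3 (-0.887 over 9 rats and -0.602 over 10), the receptor gene IL11RA1 (-0.868 and -0.639), the splicing factor HNRNPM (-0.861 and -0.143), the metallothionein MT1 (-0.855 and -0.857) and the glycosyltransferase MGAT3 (-0.841 and -0.381).

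**Figure D5:**
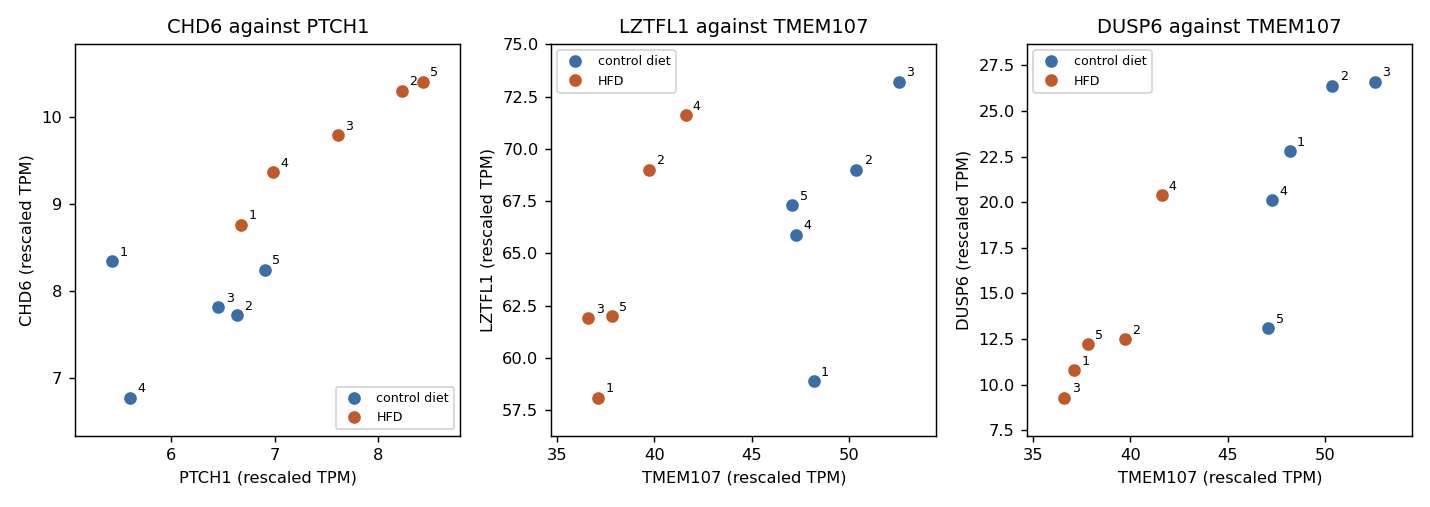
Rescaled TPM of CHD6 (vertical axis) against PTCH1, and of LZTFL1 and DUSP6 (vertical axes) against TMEM107. Points are single rats, coloured by diet, with replicate numbers. Within each diet the points rise together apart from control rat 1 in the first and second panels, at 8.34 for CHD6 and 58.9 for LZTFL1.

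The members were also set beside the genes that the study lists as differing, a list that holds PTCH1 but not TMEM107. PTCH1 itself was left out of the comparison. The listed genes were split by the sign of their log2 difference in the limma fit used here, which need not be the study's own direction for each gene. With the 13 that were higher on the HFD, the median r of PTCH1 over 9 rats was 0.449 and 11 of them were above 0, against 50.4% of all genes, but over all 10 rats the median was 0.149 with 8 above 0. With the 32 genes of the list that were lower, the median r of PTCH1 was -0.01 over 9 rats and -0.27 over 10. Of the 32, 16 were above 0 over 9 rats and 6 over 10, against 50.4% and 49.2% of all genes. TMEM107 had a median r of 0.13 with the lower genes over 9 rats and of 0.02 over 10, and 18 and 17 of the 32 were above 0, against 49.9% and 51.6% of all genes. These lists were chosen on the same libraries, though not on how genes move together within a diet.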

How the data were processed

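Gene expression was measured by paired-end RNA sequencing in 10 rats. The authors used STAR for alignment and RSEM for quantification against Rnor_6.0. The submitters' processing notes give versions 2.7.2a and 1.3.3, and the study's methods a later STAR. For each Ensembl gene the authors deposited TPM and FPKM. The authors tested raw counts, not used here. FPKM in the deposited files are a constant multiple of TPM within a rat and gave only the mean effective transcript length.

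TPM were divided by median ratios to the geometric mean of all rats. Genes with a mean of at least 1 (12183) were fitted with limma 3.58.1 (R 4.3.3) on log2(TPM + 0.1), with a mean-variance trend, diet as the only term and Benjamini-Hochberg adjustment, so that differences of low genes are understated. Groups came from the sample titles. Correlations used exact permutations within diets (14400 arrangements, 2880 without control rat 1), adjusted over 19 relations. Python 3.11.15 was used with scipy 1.17.1, numpy 2.4.6, matplotlib 3.10.9 and pandas 2.3.3, and both tests were tested on simulated data.

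The members, gene lists and settings were chosen with earlier results of these data known. Gene names came from the study's supplementary tables, of which the longer was a shortened copy, and 7 symbols held by several identifiers were left out of the lists. Promoter sequences are from RefSeq (GRCr8), matched by symbol for both members. Neighbouring genes were not analysed here, as none was named. Named genes were both members, listed Hedgehog and transition zone genes, each listed gene with an unadjusted p under 0.05 or among the 2 smallest p of its list, and the 5 most and least correlated genes. Some genes of this rule are not reported here. Near-identical and overlapping genes can share reads in RSEM. Alternatives changed the scaling, pseudocount, filter, array weights, block, covariate or rats.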

Additional observations from a re-analysis of the deposited data

Results flagged for a closer look

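Values of the members, their ratio, library measures and the listed ciliary and Hedgehog genes were screened in groups of 5 rats for a rat whose gap to the nearest other exceeded 0.71 of the group's range (Dixon's ratio). Of 82 groups 11 passed, where chance gives about 4.1 (1 in 20), and control rat 1 was the rat in 9.

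For the members, only PTCH1 with TPM as deposited passed, through HFD-fed rat 5 at 9.57 against 7.23 to 7.85 (ratio 0.735), and its rescaled TPM did not. Control rat 1 passed for its mean effective transcript length, 789 against 905 to 918 (ratio 0.9), and its median-ratio factor, 0.752 against 1.02 to 1.05 (ratio 0.884). It was low for CSNK1A1, 44.1 against 85.7 to 93.0 (ratio 0.85), and for UNC119B, 92.9 against 132 to 144 (ratio 0.767). It was high for IFT20, 66.3 against 47.2 to 52.2 (ratio 0.74), ARL3, 147 against 87.4 to 98.5 (ratio 0.815), UNC119, 162 against 127 to 136 (ratio 0.747), CFAP126, 359 against 203 to 226 (ratio 0.85), and CCDC181, 60.7 against 43.9 to 47.9 (ratio 0.758). HFD-fed rat 2 was high for TMEM216, the other HFD-fed rats being at 42.7 to 44.5 (ratio 0.758).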

How the results depend on the processing

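The direction of both members was the same in all 18 alternatives run for each. The log2 difference of PTCH1, 0.29, ran from 0.24 to 0.39 and was 0.24 to 0.33 with 1 rat left out. That of TMEM107, -0.35, ran from -0.38 to -0.25 and was -0.38 to -0.32 with 1 rat left out, and with TPM as deposited it moved to -0.25, by more than the within-diet SD. The log2 ratio of PTCH1 to TMEM107, 0.64, ran from 0.58 to 0.70.

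The number of genes with an adjusted p under 0.05 by limma, 0 of 12183 (1048 with an unadjusted p under 0.05), became 3 under array weights, 2 when mean effective length entered as a covariate, 1 without a filter on low genes, and 0 to 0 with 1 rat left out. The 1048 became 624 with TPM as deposited (154 of them lower, against 589 after rescaling), 1869 under array weights, 618 when a mean TPM of 10 was required, and 794 to 1440 with 1 rat left out, the highest without control rat 1. Of the ciliary genes, 3 became 0 with TPM as deposited, 5 with the axoneme genes added, and 2 to 4 with 1 rat left out. Of the marker genes, 1 became 0 with TPM as deposited and 2 (2 to 2) without control rat 1, KL being higher and AQP1 lower on the HFD. The Hedgehog count, 0, was 0 in all 18 alternatives.

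The r between the members within diets, 0.123, was 0.793 with TPM as deposited and, with 1 rat left out, -0.0118 (without HFD rat 1) to 0.417. The number of relations with an adjusted p under 0.05, 0 of 19, became 13 with TPM as deposited and stood at 0 on either scale once control rat 1 was omitted. The cause was not tested.

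Both diets use replicate numbers 1 to 5. Same-numbered rats deviated together with r of 0.116, -0.0379, 0.0117, 0.0594 and 0.106 across genes, and 3 of 10 rats correlated best with their own number, so the numbers were not read as pairs. A fit with replicate number as a block gave 0 genes past an adjusted and 1141 past an unadjusted p of 0.05, 2 of them ciliary, the log2 differences stayed 0.29 and -0.35 and the ratio 0.64. The covariate and the added axoneme genes were chosen after seeing the data.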
